A study of Rattus norvegicus with 18 samples.

Results

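Genes that mark the endothelial cells lining brain vessels and the mural cells wrapped around them were described in the prefrontal cortex (PFC) of rat pups at postnatal day 14 (P14). The list holds 36 gene symbols, 25 endothelial and 11 mural, chosen by name as markers, junction proteins, transporters, receptors and transcription factors of these cells, without a threshold on their values but with earlier results of these data known. Rows were found for 33 of them among 32623 genes, 23 endothelial and 10 mural, and all 33 had enough counts to be among the 15703 genes tested. *Pecam1*, *Robo4* and *Foxf2* matched no symbol, so that their levels were not analysed here. *Robo4* and *Foxf2* enter only the search of upstream sequences below.

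Brain endothelial cells form the blood-brain barrier: tight junctions seal the gaps between neighboring cells, few vesicles cross them, and nutrients enter through dedicated transporters. Pericytes on the capillaries and smooth muscle cells on the arterioles make up the mural cells, which are recruited by endothelial platelet-derived growth factor acting on its receptor PDGFRB and which help to keep the barrier closed. The barrier also governs which drugs carried in maternal blood or milk reach the developing brain.

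RNA-seq was performed on total RNA from the PFC of 18 Sprague Dawley pups, 6 in each of 3 groups. Dams of the saline control group (SAL) received saline. Dams of the postnatal group (PNO) were gavaged orally with oxycodone (oxy) at 15 mg/kg/day from parturition until weaning, and the drug reached the pups in the milk. Dams of the in utero group (IUO) received 10 mg/kg/day for 5 days, were raised in steps of 0.5 mg/kg/day over 10 days to 15 mg/kg/day, were then mated, and stayed on oxy until the pups were weaned. The labels do not give the dam, litter or sex of a pup, so the p-values measure the spread between these pups.

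Libraries held between 18381819 and 26084780 expected counts (median 22726306), and the 33 genes had between 40 and 3091 expected counts in a pup. Levels are given as CPM, counts relative to library size after TMM scaling, and, where different genes are set side by side, as CPM per kilobase (kb) of the effective length that the authors deposited for each gene. Neocortical excitatory neuron markers were present in every pup, with a summed level of 951.8 to 2383 CPM, while the sums for striatal markers (194.8 to 1990 CPM), choroid plexus markers (6.2 to 979.6 CPM), red blood cell markers (352.9 to 7477 CPM) and oligodendrocyte markers (1660 to 14320 CPM) differed widely from pup to pup. Meningeal fibroblast markers, several of which are shared with cells around larger vessels, summed to 225.2 to 611.5 CPM. None of the markers found was at 0 in all 18 pups. In bulk tissue, fewer cells of a type and less RNA per cell cannot be told apart.

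The upstream sequence of 5 of these genes is shown. *Podxl* and *Tie1* had the smallest p-values of the 33 genes for PNO against SAL, and *Cldn5* and *Notch3* varied most closely with a property of the libraries. *Eng* is shown as an example of a match to a motif of the ETS family, to which the endothelial factor ERG belongs. The RefSeq table used here (assembly GRCr8) held such windows, from 250 bases before to 50 bases after the start of the gene, for 23 of the 36 symbols, 15 endothelial and 8 mural. Each is printed 5′ to 3′ on the strand of the gene, with matches to the searched letters in capitals on whichever strand they lie.
Podxl (chr4:61149082-61149381, minus strand): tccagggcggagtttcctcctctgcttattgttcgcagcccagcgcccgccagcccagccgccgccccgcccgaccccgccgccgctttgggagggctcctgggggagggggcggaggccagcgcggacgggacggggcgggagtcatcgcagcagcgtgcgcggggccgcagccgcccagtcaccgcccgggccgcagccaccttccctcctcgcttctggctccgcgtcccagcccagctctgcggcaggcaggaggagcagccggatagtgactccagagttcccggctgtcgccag
Tie1 (chr5:137304932-137305231, minus strand): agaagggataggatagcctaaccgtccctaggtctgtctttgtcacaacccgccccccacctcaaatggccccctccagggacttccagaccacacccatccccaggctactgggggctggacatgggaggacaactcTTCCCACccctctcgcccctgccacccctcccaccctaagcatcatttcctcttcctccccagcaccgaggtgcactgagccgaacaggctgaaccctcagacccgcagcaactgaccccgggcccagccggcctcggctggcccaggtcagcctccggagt
Cldn5 (chr11:95718549-95718848, minus strand): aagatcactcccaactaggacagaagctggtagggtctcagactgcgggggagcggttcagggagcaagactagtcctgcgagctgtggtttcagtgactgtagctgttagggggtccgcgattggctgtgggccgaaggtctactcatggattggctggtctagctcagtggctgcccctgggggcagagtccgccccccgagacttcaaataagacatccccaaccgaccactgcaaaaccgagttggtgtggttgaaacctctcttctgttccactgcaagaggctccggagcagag
Notch3 (chr7:11834536-11834835, minus strand): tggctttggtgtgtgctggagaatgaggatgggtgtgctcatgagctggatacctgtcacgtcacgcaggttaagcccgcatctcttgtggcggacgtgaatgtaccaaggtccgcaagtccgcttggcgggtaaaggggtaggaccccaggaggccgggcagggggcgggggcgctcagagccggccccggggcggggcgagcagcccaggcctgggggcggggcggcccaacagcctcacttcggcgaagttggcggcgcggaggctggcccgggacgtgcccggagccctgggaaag
Eng (chr3:36332029-36332328, plus strand): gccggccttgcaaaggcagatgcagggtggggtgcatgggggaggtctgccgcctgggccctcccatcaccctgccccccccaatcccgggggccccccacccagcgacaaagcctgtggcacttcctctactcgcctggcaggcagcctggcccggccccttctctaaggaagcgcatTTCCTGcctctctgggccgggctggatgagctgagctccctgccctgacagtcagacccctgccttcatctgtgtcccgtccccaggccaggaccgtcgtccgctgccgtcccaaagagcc

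The following letters were searched on both strands of every window. The ETS motif CAGGAA was found in 6 of 15 endothelial genes (*Egfl7*, *Emcn*, *Eng*, *Erg*, *Robo4* and *Tjp1*) and 3 of 8 mural genes (*Abcc9*, *Rgs5* and *Vtn*), while 29.1% of all 33469 windows held it. In *Eng* it began 71 bases before the start and reads TTCCTG on the printed strand. The ETS motif CCGGAA was found in *Lsr* and *Foxc1* only, against 15.0% of all windows. GTGGGAA, which is read by RBPJ, the DNA-binding partner of Notch receptors, was found in *Itm2a*, *Tie1* and *Vtn*, against 6.3% of all windows, and in *Tie1* it began 112 bases before the start and reads TTCCCAC on the printed strand. A strict form of the CArG box, which serum response factor binds in smooth muscle genes, was searched as well. It was found in 0 of the 23 genes and 1.6% of all windows. Of the contractile smooth muscle genes only *Acta2* had a window, so that this count says little about such genes. Forms with a mismatch were not searched, and the *Acta2* window holds CCCTATATGG and CCTTGTTTGG, which depart from the strict form by a letter. The 2 ETS motifs and GTGGGAA end in the same letters GGAA, and a match describes the letters of these windows and nothing more.

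Junction genes included the most abundant member. *Cldn5* (ENSRNOG00000045811) encodes claudin-5, the main tight junction strand protein of brain endothelium, and stood first per length at 83.5 ± 15.6 CPM per kb (SD, n = 18). Its level ran from 76.2 to 137.5 CPM in SAL (median 118.7), from 80.4 to 156.9 CPM in PNO (median 118.9) and from 88.3 to 131.9 CPM in IUO (median 102.6). The 3 groups overlapped over most of their ranges, and the lowest and highest pups differed 2.06-fold. *Esam*, an adhesion molecule of endothelial junctions, stood at 15.0 ± 3.02 CPM per kb, *Tjp1* (ZO-1, a junction scaffold that many cell types use) at 13.7 ± 1.72, *Cdh5* (VE-cadherin) at 5.76 ± 0.930, *Lsr* (angulin-1, which seals corners where 3 cells meet) at 5.68 ± 0.890 and *Ocln* (occludin) at 3.45 ± 0.489.

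Transport genes followed close behind. *Slco1c1*, which carries thyroid hormone across the barrier and is also made by astrocytes, stood at 41.5 ± 6.22 CPM per kb, *Slc2a1*, the glucose transporter GLUT1, at 28.5 ± 3.50, and *Mfsd2a*, which takes up lipids bound to lysophosphatidylcholine and holds down vesicle traffic, at 15.2 ± 2.12. *Slc2a1* had a median of 77.5 CPM in SAL (58.1 to 86.3), 72.8 CPM in PNO (58.4 to 81.1) and 67.9 CPM in IUO (61.6 to 77.2). The highest and lowest pups differed 1.48-fold for *Slc2a1*, with both of them in SAL.

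Of the surface and secreted proteins, *Itm2a* ranked 2 of the 33 genes per length at 58.6 ± 6.71 CPM per kb and *Cd34*, a sialomucin of vessel lumens, at 12.3 ± 3.17. *Vwf* (von Willebrand factor), *Podxl* (podocalyxin, a sialomucin of the luminal surface), *Emcn* (endomucin) and *Icam2* (an adhesion molecule) stood between 4.54 and 6.03 CPM per kb. *Cd34* varied most among the 23 endothelial genes within groups, with an SD of 0.37 on the log2 scale, and *Podxl* least, with 0.12. Receptors and signalling proteins covered a range from *Egfl7*, a secreted matrix protein, at 16.5 ± 2.88 CPM per kb, through *Eng* (endoglin, a co-receptor for BMP9) at 11.9 ± 2.67 and *Tie1* (an orphan partner of the angiopoietin receptor) at 10.98 ± 1.13, to *Tek* (that receptor, TIE2) at 3.79 ± 0.526. Transcription factors were the lowest endothelial class apart from *Sox18* at 7.63 ± 1.21 CPM per kb: *Sox17* stood at 2.77 ± 0.635, *Erg* at 2.29 ± 0.349 and *Foxq1* at 1.84 ± 0.337.

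Among the mural genes, the most abundant per length were pericyte genes. *Rgs5*, a regulator of G-protein signalling that marks pericytes, ranked 4 of the 33 genes at 31.0 ± 7.51 CPM per kb, and *Vtn* (vitronectin, secreted by pericytes) ranked 7 at 16.2 ± 3.43. *Pdgfrb* stood at 7.46 ± 0.968, *Notch3*, the Notch receptor that mural cells need for their maturation, at 4.08 ± 1.16, *Abcc9*, a subunit of the potassium channel gated by ATP in pericytes, at 3.23 ± 0.405, and *Anpep* (aminopeptidase N) at 1.30 ± 0.221. The contractile smooth muscle genes stood at 9.86 ± 2.65 for *Tagln*, 5.74 ± 1.14 for *Acta2* and 1.13 ± 0.218 for *Myh11*, the last of these being the lowest of all. *Foxc1*, a transcription factor of mural and meningeal cells, stood at 2.22 ± 0.522.

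**Figure D1:**
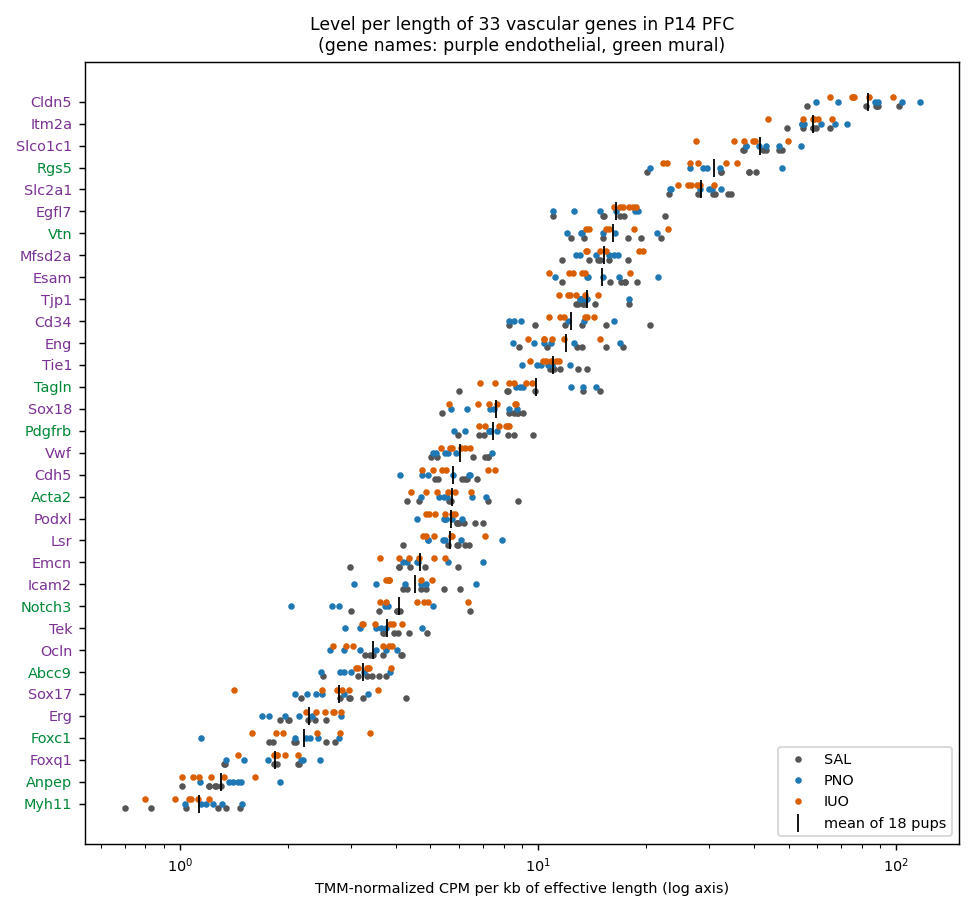
Level of the 33 vascular genes in CPM per kb of effective length (log axis), with 1 point per pup colored by group and a tick at the mean of 18 pups. *Cldn5* stands highest with a mean of 83.5 and *Myh11* lowest with 1.13, and no group stands apart from another except IUO from SAL in *Podxl*.

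The comparison of PNO with SAL asks what exposure through the breastmilk alone was accompanied by. No vascular gene passed edgeR's quasi-likelihood test after adjustment in this comparison. After Benjamini-Hochberg adjustment over the 15703 genes, 0 of 33 were called, as were 0 of all genes tested (0%), and the smallest adjusted p-value among the 33 was 0.912. DESeq2 and limma-voom also called 0 of the 33, beside 0.00637% and 0% of all genes. At an unadjusted p under 0.05 there were 2 of 33 by edgeR, against 4.5% of all genes tested, and 6 of 33 by limma-voom with quality weights, against 6.69%. No member had groups that stood apart without overlap, a pattern seen in 0.108% of all genes. The 95% intervals of the 33 differences reached at most from a 1.70-fold lower to a 1.48-fold higher level in PNO.

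The 2 genes of the edgeR fit were *Podxl* (ENSRNOG00000012495) and *Tie1*. *Podxl* ran from 30.7 to 36.4 CPM in SAL (median 31.7) and from 23.8 to 31.7 CPM in PNO (median 28.6). In PNO, 5 of the 6 pups lay below every SAL pup, and PNO replicate 6 at 31.7 CPM lay among them. The log2 fold change was -0.20 (SE 0.07, n = 6 per group, edgeR unadjusted p = 0.0167, adjusted p = 0.912), and the unadjusted p stayed under 0.05 with each of the 12 pups left out in turn. *Tie1* ran from 40.7 to 51.7 CPM in SAL (median 42.7) and from 34.1 to 46.3 CPM in PNO (median 39.4). The groups overlapped, and the log2 fold change was -0.17 (SE 0.08, edgeR unadjusted p = 0.0456). This p came to 0.05 or more without SAL replicate 2, 3 or 5 or without PNO replicate 1, 3, 4 or 5. It did so as well with only the 12 pups compared and with the replicate number as a block. By DESeq2 and by limma-voom the unadjusted p of *Tie1* was under 0.05.

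The mural and the endothelial gene with the largest difference by size were *Notch3* and *Sox17*. *Sox17*, a factor of arterial endothelium, had a log2 fold change of -0.26 (SE 0.19), and *Notch3* of -0.33 (SE 0.21). *Notch3* ran from 21.7 to 46.5 CPM in SAL (median 29.2) and from 14.8 to 36.8 CPM in PNO (median 23.6), so that most of the PNO range lay inside that of SAL. *Anpep*, the pericyte aminopeptidase N, was second in size over the 33 genes at 0.27 (SE 0.13, edgeR unadjusted p = 0.0570, adjusted p = 0.912), and it is named here after its values were seen. It ran from 3.80 to 4.88 CPM in SAL and from 4.26 to 7.14 CPM in PNO, where 5 of the 6 pups lay above every SAL pup, and the difference was 0.19 without PNO replicate 5, the highest pup. The differences for *Cldn5* (0.05, SE 0.15) and *Pdgfrb* (-0.15, SE 0.10) were smaller than 2 SE. With the balance of long against short transcripts in each library, described further on, as a covariate, the difference was -0.14 for *Notch3* and -0.12 for *Cldn5*. Without SAL replicate 6 that of *Notch3* was -0.17, and without SAL replicate 3 those of *Sox17* and *Pdgfrb* were -0.14 and -0.08. The edgeR unadjusted p was under 0.05 for *Notch3* without PNO replicate 1, for *Pdgfrb* without SAL replicate 4 and for *Anpep* without PNO replicate 4. An unadjusted p under 0.05 was also given by limma-voom for *Notch3*, and by edgeR with the balance as a covariate for *Sox17* and *Anpep*. The *Cldn5* difference turned to -0.045 without SAL replicate 6, to -0.046 without PNO replicate 2 and to -0.003 without PNO replicate 3.

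By direction alone, 23 of 33 genes had a lower fitted level in PNO than in SAL, 16 of 23 endothelial and 7 of 10 mural, against 49.2% of all genes. The median log2 fold change was -0.11 for the endothelial genes, -0.09 for the mural genes and 0.00 for all genes tested. Over the other settings and with single pups left out, the number of lower genes ran from 19 to 27 of 33, from 13 to 20 of the endothelial and from 6 to 8 of the mural genes. Of the 6 pericyte genes tested, 5 were lower in each of these fits, and of the 4 receptor and signalling genes 3 or 4 were. These genes vary together from pup to pup, so that the counts were given no test. Oligodendrocyte markers had a median sum of 6089 CPM in SAL and 10040 CPM in PNO. At an unadjusted p under 0.05 by edgeR, 1 of 6 of these markers was higher in PNO and 1 of 7 microglia markers lower. After adjustment 0 markers passed, and the part of these cell types in the vascular results was not tested.

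**Figure D2:**
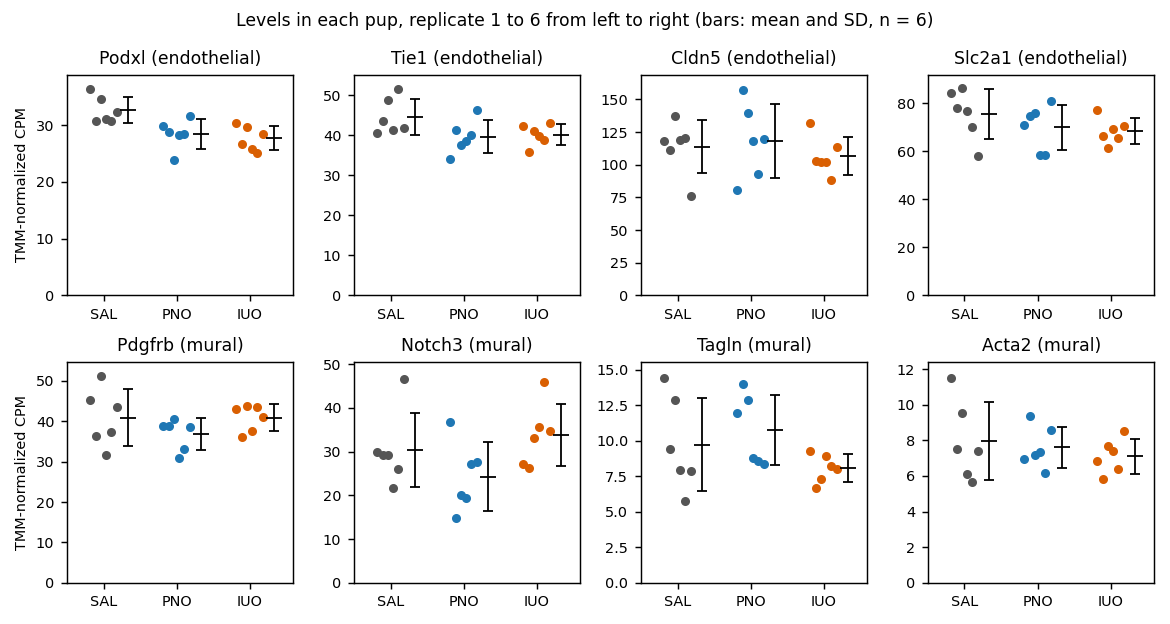
TMM-normalized CPM of 4 endothelial and 4 mural genes in each of 18 pups, with replicates 1 to 6 from left to right in each group and bars for the mean and SD (n = 6). All 6 IUO pups lie below all 6 SAL pups for *Podxl* (25.2 to 30.4 against 30.7 to 36.4 CPM), while the groups of the other 7 genes overlap.

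The comparison of IUO with SAL asks the same of exposure that began before birth and went on in the breastmilk. No vascular gene was called (0 of 33), again with 0 of all genes tested called (0%), and the smallest adjusted p-value among the 33 was 0.498. DESeq2 and limma-voom again called 0 of the 33, beside 0.312% and 0.274% of all genes. There was 1 gene of 33 with an unadjusted p under 0.05 by edgeR, against 6.88% of all genes, and 7 of 33 by limma-voom with quality weights, against 17.3%. The 95% intervals reached from a 1.60-fold lower to a 1.50-fold higher level in IUO.

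The gene of the edgeR fit was again *Podxl*, which ran from 25.2 to 30.4 CPM in IUO (median 27.6) below the SAL range of 30.7 to 36.4 CPM. The groups stood apart by a narrow margin. The log2 fold change was -0.24 (SE 0.07, n = 6 per group, edgeR unadjusted p = 0.00526, adjusted p = 0.498), and the unadjusted p stayed under 0.05 with each pup left out. *Podxl* was the only 1 of the 33 genes whose groups did not overlap, a pattern that 0.745% of all genes showed in this comparison. PNO and IUO were set against the same 6 SAL pups, so that the low values of *Podxl* in both are not independent of each other, and between IUO and PNO the levels of this gene overlapped. *Podxl* is also made by some neurons, whose excitatory markers summed to 951.8 to 2383 CPM in SAL and 1113 to 2095 CPM in IUO, and their part in the result was not tested. Of the 4 red blood cell markers found, 3 were higher in IUO than in SAL at an unadjusted p under 0.05 and 0 after adjustment by edgeR. Their sums were 478.3 to 2537 CPM in SAL and 1098 to 7477 CPM in IUO. By the same measure 1 of 7 microglia markers was lower in IUO, and 0 markers of the other lists differed. Median sums in SAL and IUO were 6089 and 2907 CPM for oligodendrocyte markers and 326.5 and 709.1 CPM for striatal markers. The part of these cell types in the vascular results was likewise not tested.

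*Esam* had the largest endothelial difference at -0.30 (SE 0.15, edgeR unadjusted p = 0.0680, adjusted p = 0.776), with 20.2 to 32.6 CPM in SAL (median 29.9) and 18.6 to 31.2 CPM in IUO (median 22.3). In SAL, 5 of the 6 pups lay at 27.5 to 32.6 CPM, above 5 of the 6 IUO pups, at 18.6 to 23.3 CPM. The unadjusted p of *Esam* was under 0.05 with limma-voom (-0.42, adjusted p = 0.0833), without TMM, with only the 12 pups compared, with the library balance described further on as a covariate, without SAL replicate 6 and without IUO replicate 1. *Tagln* had the largest mural difference at -0.27 (SE 0.20), and it was -0.13 without SAL replicate 1 and -0.17 without SAL replicate 3. *Cldn5* differed by -0.09 (SE 0.15) and *Pdgfrb*, whose means were 40.8 ± 7.09 CPM in SAL and 40.9 ± 3.27 CPM in IUO (SD, n = 6), by 0.00 (SE 0.10).

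In direction, 22 of 33 genes were lower in IUO, against 52.0% of all genes: 18 of 23 endothelial and 4 of 10 mural. The median log2 fold change was -0.13 for the endothelial and 0.00 for the mural genes, with -0.01 for all genes tested. The mural count rests on values near 0, such as those of *Pdgfrb* and *Vtn*: it was 6 of 10 lower with DESeq2, with DESeq2's size factors and without TMM, 8 of 10 with limma-voom and 4 to 7 with a pup left out. The endothelial count ran from 16 to 20 of 23 over the same settings and left-out pups. All 6 junction genes and all 3 contractile genes had lower fitted levels, none of them with an unadjusted p under 0.05 in the edgeR fit of all 18 pups, and with pups left out 5 or 6 of the junction genes did.

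**Figure D3:**
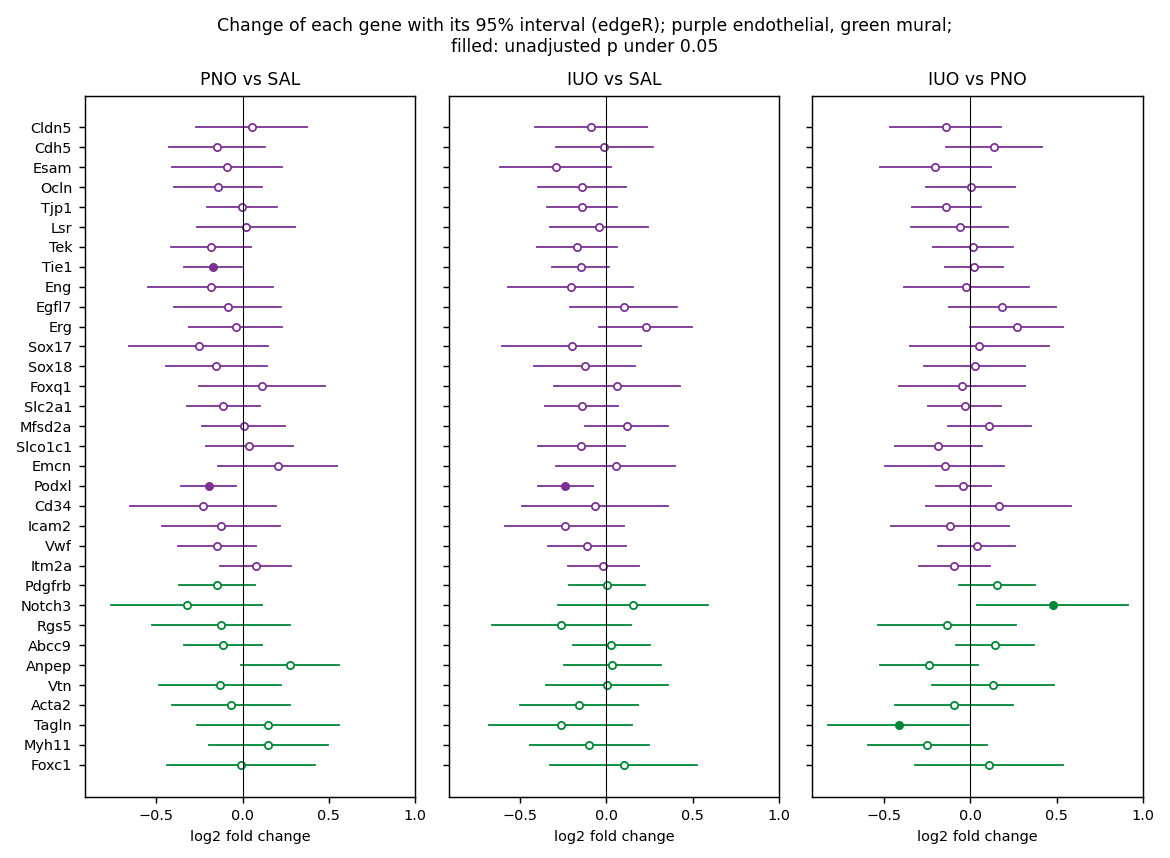
Log2 fold change of each of the 33 genes in the 3 comparisons with its 95% interval from edgeR, purple for endothelial and green for mural genes, filled where the unadjusted p is under 0.05. Filled points number 2, 1 and 2 of 33, no gene passes after adjustment, and the intervals span from -0.83 to 0.91 at their widest, in IUO against PNO.

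Between IUO and PNO, groups that differ in whether exposure began before birth, 10 of all 15703 genes were called by edgeR (0.0637%) and 0 of the 33 vascular genes. The 10 became 1 to 95 as single pups were left out, with 95 without PNO replicate 5. At an unadjusted p under 0.05 there were 2 of 33, against 15.3% of all genes, both of them mural. No member had groups without overlap, against 1.66% of all genes. The 17 genes lower and 16 higher in IUO were near the 50.1% of all genes with a lower fitted level. With pups left out 14 to 21 were lower, and with the library balance described further on as a covariate 12. The endothelial and mural medians were -0.02 and 0.01.

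*Notch3* was higher in IUO, at 26.2 to 46.0 CPM (median 34.0), than in PNO, at 14.8 to 36.8 CPM (median 23.6). In PNO, 3 pups at 14.8, 19.3 and 20.1 CPM lay below every IUO pup and the other 3 lay within the IUO range. The log2 fold change was 0.48 (SE 0.21, n = 6 per group, edgeR unadjusted p = 0.0339, adjusted p = 0.290). It was called by limma-voom with quality weights, at 0.64 (adjusted p = 0.0202), which called 12.9% of all genes in this comparison, and not by DESeq2. *Notch3* varied with a property of the libraries described further on, the balance of long against short transcripts, which was -0.09 ± 0.24 in PNO and 0.05 ± 0.12 in IUO (SD, n = 6), and with that balance as a covariate the difference was 0.29 (edgeR unadjusted p = 0.00897). *Tagln*, which encodes the actin-binding protein transgelin, was lower in IUO, at 6.6 to 9.3 CPM (median 8.1), than in PNO, at 8.4 to 14.0 CPM (median 10.3). In PNO, 3 pups at 11.9 to 14.0 CPM lay above every IUO pup, and the log2 fold change was -0.41 (SE 0.20, edgeR unadjusted p = 0.0499, adjusted p = 0.327), or -0.26 with limma-voom. Oligodendrocyte markers summed to 2812 to 14320 CPM in PNO and 2124 to 5438 CPM in IUO, with all 6 markers lower in IUO at an unadjusted p under 0.05, and 2 of the 4 red blood cell markers were higher (352.9 to 2191 CPM in PNO and 1098 to 7477 CPM in IUO). By the same measure 2 of 6 astrocyte, 1 of 8 meningeal fibroblast and 1 of 7 microglia markers were lower, and 0 markers of these lists passed after adjustment by edgeR. Their part in these results was not tested.

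*Erg* had the largest endothelial difference at 0.27 (SE 0.13, edgeR unadjusted p = 0.0503), with 3.67 to 6.08 CPM in PNO and 4.86 to 6.10 CPM in IUO. *Cldn5* differed by -0.14 (SE 0.15), which turned to 0.059 with the library balance as a covariate, and *Pdgfrb* by 0.15 (SE 0.10). The *Notch3* difference was no longer past the unadjusted threshold without PNO replicate 2, 3 or 4 or without IUO replicate 4, 5 or 6, and that of *Tagln* was past it only without PNO replicate 4, 5 or 6 or IUO replicate 1.

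A further 32 genes of the pathways that build and maintain these vessels were counted in the same fits, and 0 were called by edgeR in any comparison. Limma-voom with quality weights called *Pdgfb*, *Wnt7a* and *Ctnnb1* in IUO against PNO, where it called 12.9% of all genes. They cover the angiopoietin and platelet-derived growth factor ligands, TGF-β and Notch signalling, the Wnt7 pathway to the barrier and other junction proteins. Against SAL, 23 of 32 were lower in PNO and 21 of 32 in IUO, and 12 of 32 were lower in IUO than in PNO, beside 49.2%, 52.0% and 50.1% of all genes. In each comparison 3 of 32 had an unadjusted p under 0.05 by edgeR, beside 4.5%, 6.88% and 15.3% of all genes in the same order.

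For PNO against SAL these were *Dll4*, *Adgra2* and *Axin2*, all lower. *Dll4*, the Notch ligand of sprouting tip cells and arteries, ran from 5.11 to 6.04 CPM in SAL and from 3.67 to 5.24 CPM in PNO, with a log2 fold change of -0.38 (SE 0.11, edgeR unadjusted p = 0.00204, adjusted p = 0.912). In PNO, 5 of the 6 pups lay below every SAL pup. *Adgra2* (GPR124, the endothelial co-receptor for Wnt7) differed by -0.46 (SE 0.21), with the highest level, 31.3 CPM, in SAL replicate 6. Without that pup it was -0.27, and with the library balance as a covariate -0.23, with an unadjusted p above 0.05 in both. *Axin2*, a Wnt target gene, differed by -0.19 (SE 0.08).

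For IUO against SAL they were *Dll4*, *Acvrl1* and *Jam2*, also all lower. *Dll4* ran from 4.37 to 5.08 CPM in IUO, below every SAL pup, a lack of overlap seen in 0.745% of all genes, with a log2 fold change of -0.26 (SE 0.11, edgeR unadjusted p = 0.0225, adjusted p = 0.646). *Acvrl1* (ALK1, the receptor that acts with endoglin) differed by -0.33 (SE 0.15) and *Jam2* (a junctional adhesion molecule) by -0.20 (SE 0.08). The SAL pups are again shared, and the low *Dll4* values in PNO and IUO rest on the same 6 controls.

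For IUO against PNO they were *Pdgfb*, *Wnt7a* and *Ctnnb1*, all higher in IUO. *Pdgfb*, the endothelial ligand of PDGFRB, differed by 0.24 (SE 0.08, edgeR unadjusted p = 0.00900, adjusted p = 0.185), with 30.1 to 34.7 CPM in PNO and 31.5 to 40.8 CPM in IUO. In IUO, 5 of the 6 pups lay above every PNO pup. *Wnt7a*, made by neural cells and read by the endothelium, differed by 0.32 (SE 0.11), and *Ctnnb1* (β-catenin, present in all cells) by 0.29 (SE 0.12), or by 0.17 with the library balance as a covariate.

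The balance between endothelial and mural genes in a pup was taken as the mean of its centred log2 levels over the 23 endothelial genes minus that over the 10 mural genes. It was 0.03 ± 0.26 in SAL, -0.02 ± 0.16 in PNO and -0.02 ± 0.18 in IUO (SD, n = 6). The pups ran from -0.36 in SAL replicate 6 to 0.36 in SAL replicate 5, so that the widest range lay inside the control group. The lowest values were those of SAL replicate 6, IUO replicate 5 (-0.30) and PNO replicate 1 (-0.26). These libraries also had the highest long-minus-short balance of transcripts, described further on (0.48, 0.24 and 0.25). That library balance was 0.05 in SAL replicate 5 and lowest, at -0.34, in PNO replicate 2, whose endothelial-minus-mural value was 0.14. The part of this library property in the endothelial-minus-mural values was not tested. Endothelial and mural means did not always move in step: SAL replicate 5, with 16 of 23 endothelial genes above their own mean, had 1 of 10 mural genes above it and the lowest *Acta2*, *Tagln* and *Myh11* of all pups.

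Single pups stood out across many members. PNO replicate 2 had the highest level of 9 of the 33 genes (*Cldn5*, *Esam*, *Lsr*, *Slco1c1*, *Emcn*, *Icam2*, *Vwf*, *Itm2a* and *Myh11*) and the lowest *Notch3*. SAL replicate 3 was highest in 6 genes and lowest in none. SAL replicate 6 was lowest in 8 genes, all endothelial, and highest in *Notch3*. PNO replicate 1 was lowest in 5 genes and IUO replicate 5 in 4, and these 2 pups and SAL replicate 6 were also the 3 with the lowest *Cldn5* (80.4, 88.3 and 76.2 CPM) and the highest *Notch3* (36.8, 46.0 and 46.5 CPM).

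**Figure D4:**
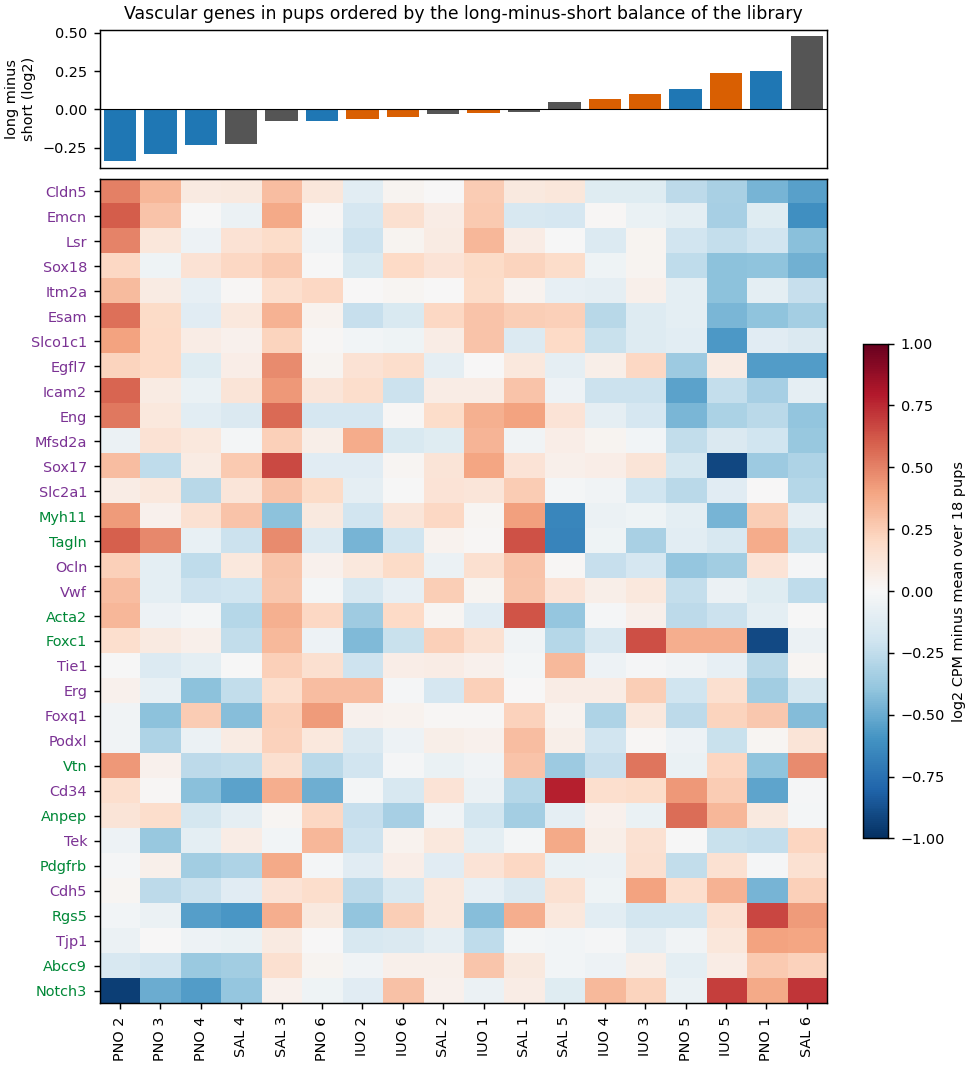
Log2 CPM of each of the 33 genes minus its mean over 18 pups (color, red high and blue low), with pups ordered by the long-minus-short balance of their library (bars on top, colored by group as in the other plots: gray SAL, blue PNO, orange IUO). *Cldn5* passes from high at the left, where the balance is -0.34, to low at the right, where it is 0.48, and *Notch3* the other way, with PNO and SAL pups at the left end and pups of all 3 groups at the right end.

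The weight of long against short transcripts in the libraries was measured, after the pattern had been seen, as the median centred log2 level of 3913 long genes (effective length over 3285 bases) minus that of 3920 short genes (under 1340 bases), with the vascular genes left out. The balance was highest in SAL replicate 6 (0.48), PNO replicate 1 (0.25) and IUO replicate 5 (0.24) and lowest in PNO replicate 2 (-0.34). SAL replicate 3, highest in 6 genes, lay within the range at -0.08. The group means were 0.03 ± 0.24 in SAL, -0.09 ± 0.24 in PNO and 0.05 ± 0.12 in IUO (SD, n = 6).

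Over 18 pups, *Cldn5* fell with this balance (Pearson's r = -0.89, Spearman's rho = -0.82, two-sided permutation p = 1e-05 for r, the smallest that 100000 resamples can give, and 6e-05 for rho). Without the 2 pups farthest from the median balance, r was -0.81, and within the groups it was -0.88 in SAL, -0.97 in PNO and -0.74 in IUO. *Notch3* rose with it (r = 0.89, rho = 0.78, permutation p = 1e-05 and 0.00022), with r = 0.85 without the 2 farthest pups and 0.94, 0.93 and 0.84 within the groups. In edgeR with group in the model, the slope per unit of balance was -1.27 for *Cldn5* (SE 0.16, adjusted p = 6.3e-06 over all 15703 genes) and 1.66 for *Notch3* (SE 0.20, adjusted p = 2.36e-06). Such relations were computed for all 33 genes. The balance was defined after *Cldn5* and *Notch3* had been seen to stand out in these pups, so that the p-values of these 2 genes restate that observation and are no independent test of it.

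By this edgeR slope, 12 of the 33 genes fell with the balance and 4 rose, against 22.2% and 23.7% of all genes tested. All 12 that fell were endothelial, with effective lengths from 1289 to 2826 bases: *Cldn5*, *Emcn*, *Lsr*, *Sox18*, *Itm2a*, *Esam*, *Slco1c1*, *Egfl7*, *Icam2*, *Eng*, *Mfsd2a* and *Sox17*. Those that rose were *Tjp1*, *Abcc9* and *Notch3*, of 6279 to 7239 bases, and *Rgs5*, of 734 bases. The relation of a gene with a balance built on length follows length to some degree in all genes: 2269 of the 8725 genes of 1000 to 3000 bases fell with it and 1636 rose, while 7 of the 768 genes over 6000 bases fell and 474 rose. Among the 33 genes, 12 of the 18 of 1000 to 3000 bases fell with it and 0 rose, with a median r of -0.58 beside -0.18 for all genes of that length. Of the 8 of 3000 to 6000 bases 0 fell and 0 rose, where 34.4% of all genes rose, and of the 5 over 6000 bases 3 rose beside 61.7% of all genes, with a median r of 0.63 beside 0.64. These shares are a description, since the genes were examined after the pattern had been seen and vary together.

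Length did not order every member. *Foxq1*, *Cd34*, *Erg* and *Vtn*, of 1549 to 2165 bases, had r from -0.03 to 0.18, *Vwf*, of 8755 bases, had r = -0.27 and *Myh11*, of 6476 bases, r = -0.38. *Podxl* (r = 0.14) and *Tie1* (r = -0.07), the genes with the smallest p-values of the 33 for PNO against SAL, showed little relation with the balance.

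**Figure D5:**
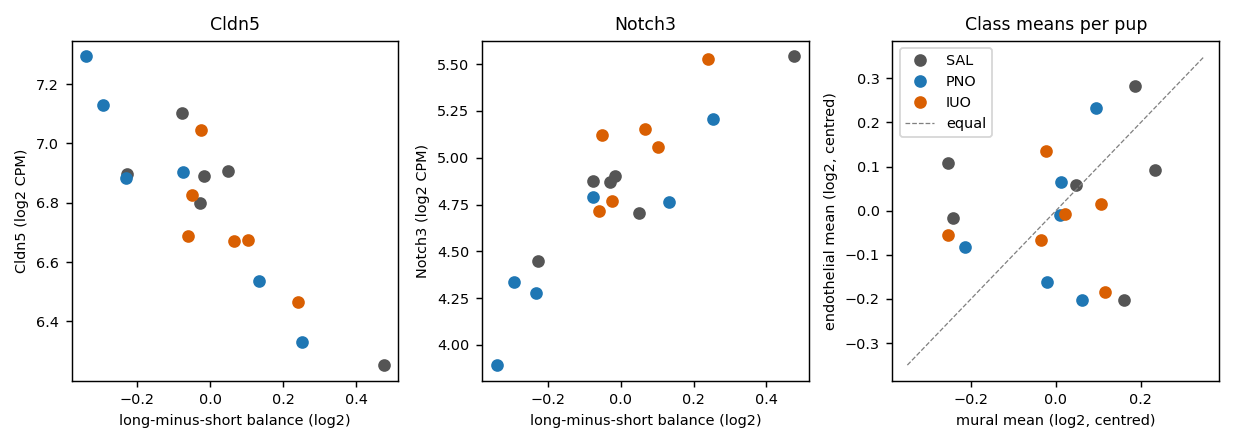
Log2 CPM of *Cldn5* and *Notch3* against the long-minus-short balance of the library in 18 pups colored by group, and, at the right, the endothelial against the mural mean of each pup with a dashed line where both are equal. *Cldn5* falls (r = -0.89) and *Notch3* rises (r = 0.89) along the balance in each of the 3 groups, while the class means show points on both sides of the line in each group.

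With the balance as a covariate, a setting added after seeing the data, 0 of the 33 genes were called in any comparison, and 7 had an unadjusted p under 0.05 in PNO against SAL, 3 in IUO against SAL and 6 between IUO and PNO. In the same fits 5.18%, 12.2% and 16.6% of all genes did. The smallest adjusted p-values among the 33 by edgeR were 0.929, 0.183 and 0.0901 in the same order. The log2 fold change of *Notch3* between IUO and PNO was 0.29 in place of 0.48, that of *Cldn5* between PNO and SAL was -0.12 in place of 0.05, and those of *Podxl* were -0.19 and -0.24 against SAL in PNO and IUO.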

How the data were processed

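RNA from the PFC of 18 pups was sequenced in single reads of 75 bases. The authors deposited, for each pup, an expected count per gene, in which reads matching several genes are divided by estimation, the TPM and FPKM values made from it, and an effective length. The aligner, quantification program, annotation and genome build are not given in the sources used here. FPKM values that the authors deposited were not used, and the deposited TPM served in 1 alternative, as log2(TPM + 0.1).

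Rounded expected counts went into edgeR 4.0.16 (R 4.3.3) with TMM, filterByExpr by group and the quasi-likelihood test (glmQLFit, glmQLFTest) on a joint model of all 18 pups (15 residual degrees of freedom, two-sided, Benjamini-Hochberg over 15703 genes). Calls needed an adjusted p under 0.05, at any fold. Log2 CPM used a prior count of 2. On simulated IUO against SAL data with 198 genes of 15557 changed 2-fold, 70.2% were recovered and 6.1% of calls were false. Smaller changes were not simulated, such as the largest log2 fold change of the 33 genes in that comparison (-0.30). DESeq2 1.42.0 and limma 3.58.1 were alternatives. Further steps used pandas 2.3.3, numpy 2.4.6, scipy 1.17.1 and matplotlib 3.10.9 under Python 3.11.15.

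Genes, lists and tests were chosen with earlier results of these data known. Fold changes are printed for members with an unadjusted p under 0.05, for the endothelial and the mural member with the largest absolute fold change, for *Cldn5* and *Pdgfrb*, for *Anpep* (added after its values were seen), and for other vascular genes with an unadjusted p under 0.05.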

Additional observations from a re-analysis of the deposited data

Results flagged for a closer look

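Within a group of 6 pups, the highest or lowest pup was compared with the rest by Dixon's ratio of gap to range, over 99 combinations of a gene and a group and 9 of a class mean, or of the difference of the class means, and a group, and chance picks out about 1 in 20 groups. Values are log2 CPM.

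SAL replicate 6 accounts for 5 of these results. It was lowest in SAL for *Cldn5* at 6.25 (76.2 CPM, with the next pup at 111.2 CPM), for *Esam* at 4.34, for *Lsr* at 3.06 and for *Sox18* at 3.09, and highest for *Tjp1* at 6.86. It also had the highest long-minus-short balance of all libraries, 0.48. PNO replicate 1, with the second highest balance, was highest in PNO for *Tjp1* at 6.86 (116.2 CPM, with the next pup at 88.5 CPM) and lowest for *Foxc1* at 2.19. *Tjp1*, the junction scaffold, thus stood at 116.1 and 116.2 CPM in these 2 pups and between 74.0 and 95.4 CPM in the other 16.

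*Rgs5* was lowest in SAL replicate 4 at 3.89, a pup in which 1 of the 10 mural genes lay above its mean. *Anpep* was lowest in SAL replicate 1 at 1.96. The mean of the 10 mural genes in PNO was lowest in PNO replicate 4 at -0.21 on the centred log2 scale. Leaving out any of these pups brought none of the 33 genes past the adjusted threshold.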

How the results depend on the processing

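Of the log2 fold changes printed above for single genes under all alternatives, 523 kept their direction and side of the adjusted threshold, 19 turned sign and 4 passed the threshold. The 4 that passed did so in IUO against PNO with limma-voom and quality weights: *Notch3* at 0.64 (adjusted p = 0.0202), *Ctnnb1* at 0.37, *Pdgfb* at 0.25 and *Wnt7a* at 0.35. That made *Notch3* the 1 member of 33 called there, beside 12.9% of all genes. No other setting called a member in any comparison.

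The number of members at an unadjusted p under 0.05 was 2 for PNO against SAL, 6 with limma-voom (6.69% of all genes), 1 with only the 12 pups compared (3.01%), 7 with the long-minus-short balance as a covariate (5.18%, added after seeing the data), and 1 to 3 as each pup was left out. For IUO against SAL it was 1, with 2 without TMM (6.77% of all genes), 7 with limma-voom (17.3%), 2 with only 12 pups (7.36%), 3 with the balance (12.2%) and 1 to 3 with a pup left out. For IUO against PNO it was 2 (*Notch3* and *Tagln*, beside 15.3% of all genes). It was 2 without TMM (*Erg* and *Notch3*, 14.4%) and 2 with limma-voom (*Notch3* and *Slco1c1*, 34.0%). With DESeq2 it was 3 (*Erg*, *Notch3* and *Tagln*, 16.4%) and with the balance 6 (16.6%). With a pup left out it was 0 to 3, with 0 without PNO replicate 3 and without IUO replicate 4.

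*Cldn5* for PNO against SAL turned to -0.0005 without TMM and to -0.12 with the balance, and ran from -0.046 to 0.14 with a pup left out. For IUO against PNO it turned to 0.059 with the balance. *Pdgfrb* for IUO against SAL, 0.003 as reported, turned to -0.0009 with DESeq2's size factors, -0.012 without TMM, -0.0004 with DESeq2, -0.024 with limma-voom, -0.0066 without the filter on low counts, -0.0038 with at least 1 CPM in 6 pups and -0.0038 with only 12 pups, and ran from -0.061 to 0.077 with a pup left out. The cause of these turns was not tested. The endothelial median against SAL ran from -0.17 to -0.06 in PNO and from -0.17 to -0.08 in IUO with a pup left out.

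Over all genes, 0 were called for PNO against SAL (706 at an unadjusted p under 0.05) and 1 with DESeq2. For IUO against SAL 0 were called (1081 unadjusted), with 49 by DESeq2, 43 by limma-voom and 15 with the balance. For IUO against PNO 10 were called, with 436 by DESeq2, 2028 by limma-voom, 72 with only 12 pups, 19 without TMM and 110 with the balance. With a pup left out, 0 were called for PNO against SAL and 0 to 1 for IUO against SAL. For IUO against PNO it was 1 to 95, with 95 without PNO replicate 5, 1 without PNO replicate 4 or 6 or IUO replicate 3, 2 to 4 without PNO replicate 2 or IUO replicate 2, 4, 5 or 6, 16 without PNO replicate 3 and 17 without IUO replicate 1. The 706 ran from 398 to 1419, with 398 without SAL replicate 6, 1291 without SAL replicate 4 and 1419 without PNO replicate 1. Unadjusted genes for PNO against SAL were 297 higher and 409 lower, and 161 and 602 without TMM. For IUO against PNO they were 964 and 1436, and 1208 and 1048 without TMM.

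The same replicate numbers occur in each group, but they share nothing that the labels name. Same-numbered pups deviated together with a mean r of 0.23 for PNO and SAL, -0.03 for IUO and SAL and 0.06 for IUO and PNO, with r over 0.1 in 4, 1 and 3 of 6 pairs. With the replicate block, 1, 1 and 2 members had an unadjusted p under 0.05, beside 4.62%, 7.44% and 16.5% of all genes. In these fits 0 members were called, and 0, 0 and 6 of all genes were called.

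The endothelial-minus-mural difference between groups stayed within the spread of the pups in every version: without smooth muscle genes it was 0.01 for PNO and -0.09 for IUO against SAL, beside -0.05 and -0.05. A gene such as *Foxq1*, with 40 to 91 expected counts in a pup, is measured less closely than *Cldn5*, with 1740 to 2976. With 6 pups a group, the 95% intervals leave room for differences of up to 1.70-fold in PNO and 1.60-fold in IUO against SAL and of up to 1.89-fold between IUO and PNO in single genes.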
